A study of Homo sapiens with 6 samples.

Results

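The 10 genes described here, which bring iron into a cell, store it, send it out or sense it, were compared between RNA-seq libraries of cells treated with LSD1 degrader compound A3 and of control cells. The genes were chosen by name, though with earlier results of these data known. They were TFRC, SLC11A2, SLC39A8 and SLC39A14 for uptake, FTH1, FTL and NCOA4 for storage, SLC40A1 for export, and IREB2 and ACO1 as iron sensors. All 10 were found once each among the 37923 genes of the deposited tables, and all 10 passed the filter on low counts, as 18581 genes did. The ENZ group held 3 libraries labelled as RKO cells, a human colorectal cancer line, treated with A3 according to the series design. The Control group held 3 libraries labelled as the same line. Markers that went against this label are given below. RNA was taken at 48 h, and the labels name no engineered allele in either group. The sources used here give neither the dose of A3, the treatment of the Control cells nor the meaning of ENZ. They call the replicates biological without saying what separated them, so p-values reflect only how far these 6 libraries vary, which may be technical.

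Cells take up most of their iron by binding transferrin to the transferrin receptor, which carries it into endosomes, where a metal transporter moves the freed iron into the cytosol. Iron that is not used at once is kept inside ferritin, a shell of heavy and light chains, and ferroportin carries iron out of the cell. Aconitase 1 and iron regulatory protein 2 sense iron: when iron is scarce they bind short RNA hairpins called iron-responsive elements (IREs), which protects the TFRC transcript from decay and blocks translation of ferritin and ferroportin. Iron held in the reactive ferrous form drives the lipid peroxidation of ferroptosis, the form of cell death that the series title addresses.

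Libraries held 26756840 to 30025543 counts in the ENZ group and 26691289 to 28207612 in the Control group. The correlation of log2 CPM was 0.994 to 0.995 within groups and 0.985 to 0.989 between groups. By the chi-square of counts, ENZ replicate 1 differed most from its group. It gave 6.73 per degree of freedom against ENZ replicate 3, and the other 5 pairs of replicates gave 1.99 to 3.61. Within ENZ, replicates 1 and 2 gave 3.61 and replicates 2 and 3 gave 2.46. The correlations did not separate replicate 1 from replicate 3: 0.99413 for replicates 1 and 2, 0.99385 for 1 and 3, and 0.99413 for 2 and 3. Without ENZ replicate 1, 4264 genes were called higher and 3994 lower, against 3814 and 3579 with all 6 libraries, whereas leaving out any other library lowered both counts. Values without ENZ replicate 1 are given with the alternative settings at the end. The labelled line was checked against markers, and the prostate luminal markers went against it. Of 10 colorectal epithelium markers compared, 8 had a mean under 1 count per 1000000 (CPM) and 2 (VIL1 and EPCAM) were over 10 CPM. The sources used here do not give the levels of these colorectal markers in other RKO cells, so their low values do not decide the line. Of 9 prostate luminal markers 0 were under 1 CPM and 6 were over 10 CPM, with a summed level of 1360.1 to 1365 normalised CPM in ENZ libraries and 1289 to 1308 normalised CPM in Control libraries. FOLH1 alone had 868 normalised CPM in ENZ libraries and 619 in Control libraries. HOXB13 and KLK4 were also over 10 CPM, whereas TMPRSS2, KLK3 and ACP3 had means of 8.94, 4.37 and 1.38 CPM. Of the 9 prostate markers 3 were called higher, 4 lower and 2 were not called, against 20.5% higher and 19.3% lower over all genes tested. Their median log2 fold change (ENZ over Control) was -0.33. The cells are still called by their labels here, although these markers went against the label. How far the results hold for RKO cells was not tested. Of 8 macrophage and leukocyte markers, 8 were under 1 CPM, and of 6 hepatocyte markers 5 were under 1 CPM. The remaining hepatocyte marker, ALB, had 72.8 normalised CPM in ENZ libraries and 59.7 in Control libraries and was called higher (adjusted p = 7.69e-05 in edgeR's test).

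Of the 10 genes, 4 carried IRE hairpins that could be found by letters alone, and these are shown because they are the RNA sites through which the sensor proteins ACO1 and IREB2 act on the other members. The search asked for a bulged C, 5 bases, the loop CAGTGN and 5 bases that pair with the first 5 (G with T allowed), on the transcript's own strand, in the untranslated parts of GENCODE release 44 protein-coding transcripts. It found 1 hairpin in the leader of FTH1, of FTL and of SLC40A1 and 4 in the trailer of TFRC. None were found in the other 6 genes. A looser element would be missed by these letters. The search therefore does not show that those 6 genes, SLC11A2 among them, lack an IRE, or that TFRC has only 4. Of 19702 protein-coding genes, 0.198% held a match in the leader and 0.721% in the trailer. Each window below is 30 bases of GRCh38 read 5′ to 3′ on the gene's strand, and capitals mark the bulged C and the loop. The FTH1 window lies at chr11:61967573-61967602 (minus strand), the FTL window at chr19:48965335-48965364 (plus strand) and the SLC40A1 window at chr2:189580660-189580689 (minus strand). The TFRC windows lie on the minus strand at chr3:196050978-196051007, chr3:196050574-196050603, chr3:196050509-196050538 and chr3:196050462-196050491, lettered A to D in transcript order.
FTH1: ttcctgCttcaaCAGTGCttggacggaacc
FTL: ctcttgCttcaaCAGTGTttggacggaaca
SLC40A1: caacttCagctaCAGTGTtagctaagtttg
TFRC hairpin A: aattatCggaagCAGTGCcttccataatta
TFRC hairpin B: cattatCgggagCAGTGTcttccataatgt
TFRC hairpin C: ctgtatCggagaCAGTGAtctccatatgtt
TFRC hairpin D: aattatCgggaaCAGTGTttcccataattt

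On the authors' FPKM scale (counts per kilobase of 1 length per gene, scaled to library size), the ferritin chains ranked highest of the 10 genes and ferroportin lowest. FTL had 476 ± 24.5 in ENZ libraries and 371 ± 9.65 in Control libraries, and FTH1 had 265 ± 7.32 in ENZ libraries and 234 ± 24.4 in Control libraries (SD, n = 3 each). The ranking depends on the lengths used, 871 bases for FTL, 2004 for FTH1 and 7794 for TFRC. On normalised CPM, which uses no length, FTH1 was above FTL in both groups (537 against 421 in ENZ libraries, 464 against 319 in Control libraries). TFRC, at 458 in Control libraries, was also above FTL there. SLC40A1 had 0.424 ± 0.0855 FPKM in ENZ libraries and 0.373 ± 0.0255 in Control libraries, from 44 to 64 counts in an ENZ library and 40 to 45 in a Control library. The ranking of the genes in between was not the same in the groups. In ENZ libraries it ran NCOA4, SLC39A14, TFRC, IREB2, SLC39A8, SLC11A2 and ACO1, from 61.3 to 9.09 FPKM, and the ranges of SLC39A8, SLC11A2 and ACO1 overlapped from one to the next. In Control libraries it ran NCOA4, TFRC, SLC39A14, SLC39A8, IREB2, SLC11A2 and ACO1, from 62.9 to 7.59 FPKM, and no neighbours overlapped. In FPKM, TFRC thus stood below SLC39A14 in ENZ libraries and above it in Control libraries. SLC39A8 stood below IREB2 in ENZ libraries and above it in Control libraries. On normalised CPM, TFRC (306) was above SLC39A14 (291) in ENZ libraries too.

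**Figure D1:**
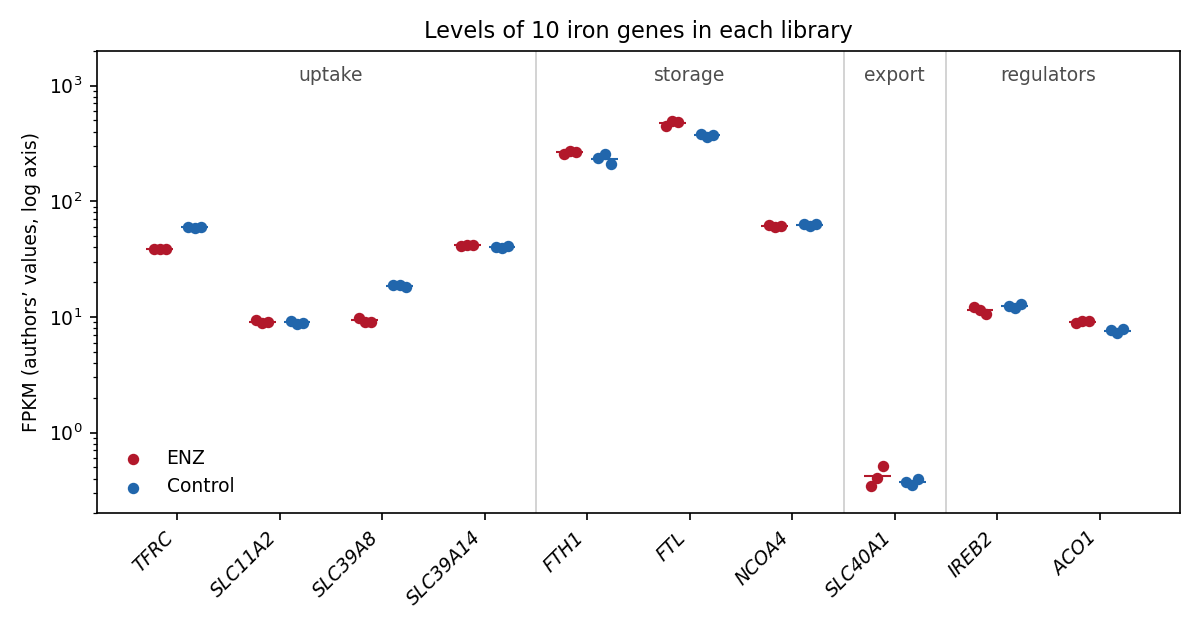
Authors' FPKM values (log axis) of the 10 iron genes in each of 3 ENZ libraries (red) and 3 Control libraries (blue), grouped by role; points are libraries and short lines are group means. The 3 ENZ libraries lie below the 3 Control libraries for TFRC and SLC39A8 and above them for FTL and ACO1, and SLC40A1 lies under 1 FPKM in all of them.

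Among the 10 genes, 3 rose in ENZ libraries (FTL, ACO1 and FTH1), 2 fell (SLC39A8 and TFRC) and 5 did not pass the test, at an adjusted p under 0.05 by edgeR's quasi-likelihood F test, with p-values adjusted by Benjamini-Hochberg over 18581 genes. Over all genes tested, 39.8% were called, 20.5% higher and 19.3% lower in ENZ, so the 5 calls in 10 genes are no result about the 10 genes as a group. On normalised CPM the ranges of the 2 groups did not overlap for 6 of the 10 genes, against 49.3% of all genes tested. On the authors' FPKM they did not overlap for 4 of the 10, against 49.2% of all genes tested, since FTH1 and SLC39A14 overlapped on that scale. The median log2 fold change (ENZ over Control) was 0.07 over the 10 genes and -0.01 over all genes tested, and none of the 10 reached a log2 fold change of 1 in either direction. The values of single genes follow in the order uptake, storage, export and sensing, as CPM scaled with TMM factors (normalised CPM), each with its log2 fold change and standard error (SE).

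TFRC encodes the transferrin receptor (ENSG00000072274; chromosome 3, 196012511 to 196082153, GRCh38). Its transcript had 305, 306 and 307 normalised CPM in ENZ libraries, against 458, 453 and 463 in Control libraries. The groups lay far apart: each differed within itself by a small part of the gap between them. TFRC fell in ENZ libraries (log2 fold change -0.58 ± 0.03 SE, 95% interval -0.65 to -0.51; adjusted p = 5.11e-12 in edgeR's test). The call held in all 16 alternative settings, with log2 fold changes of -0.62 to -0.46, the smallest with offsets for GC content and length. TFRC is known to be higher in dividing cells. Beside its fall, 9 of 12 proliferation markers fell, 1 rose and 2 were not called, against 19.3% lower and 20.5% higher over all genes tested. Their summed level was 2609 to 2614 normalised CPM in ENZ libraries and 3058 to 3069 in Control libraries. Their part in the TFRC result was not tested.

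SLC39A8 (ZIP8) and SLC39A14 (ZIP14) are related transporters that carry zinc, manganese and iron not bound to transferrin across the cell membrane. SLC39A8 (ENSG00000138821; chromosome 4, 102251080 to 102431258) had 83.5, 78.4 and 78.2 normalised CPM in ENZ libraries, against 158, 158 and 153 in Control libraries. All ENZ libraries lay far below all Control libraries, and this was the largest change among the 10 genes. It fell 1.95-fold (log2 fold change -0.97 ± 0.04 SE, 95% interval -1.05 to -0.88; adjusted p = 4.65e-14 in edgeR's test), and the call held in all 16 alternative settings. Its paralogue SLC39A14 (ENSG00000104635; chromosome 8, 22367278 to 22434129) had 285, 293 and 296 normalised CPM in ENZ libraries, against 275, 270.2 and 282 in Control libraries. All ENZ values were above all Control values, by a margin smaller than the spread within either group, and on the FPKM scale the groups overlapped. The log2 fold change was 0.08 ± 0.04 SE (95% interval 0.01 to 0.15) with an adjusted p of 0.0781 in edgeR's test. Without ENZ replicate 1 it was 0.10 with an adjusted p of 0.0142, and over the 16 settings the adjusted p ran from 0.0142 to 0.410.

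SLC11A2 (DMT1) moves ferrous iron out of the endosome after transferrin uptake (ENSG00000110911; chromosome 12, 50979401 to 51028566). It had 92.9, 88.6 and 91.9 normalised CPM in ENZ libraries, against 90.2, 85.6 and 86.7 in Control libraries, and the groups overlapped. Its log2 fold change was 0.06 ± 0.04 SE (95% interval -0.03 to 0.15; adjusted p = 0.302 in edgeR's test). With GC and length offsets it was 0.15 with an adjusted p of 0.00116 (0.00116 to 0.746 over 16 settings). The 4 uptake genes did not share a direction. The receptor and 1 ZIP transporter fell, and the other ZIP transporter and the endosomal transporter had positive log2 fold changes that did not pass the test.

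**Figure D2:**
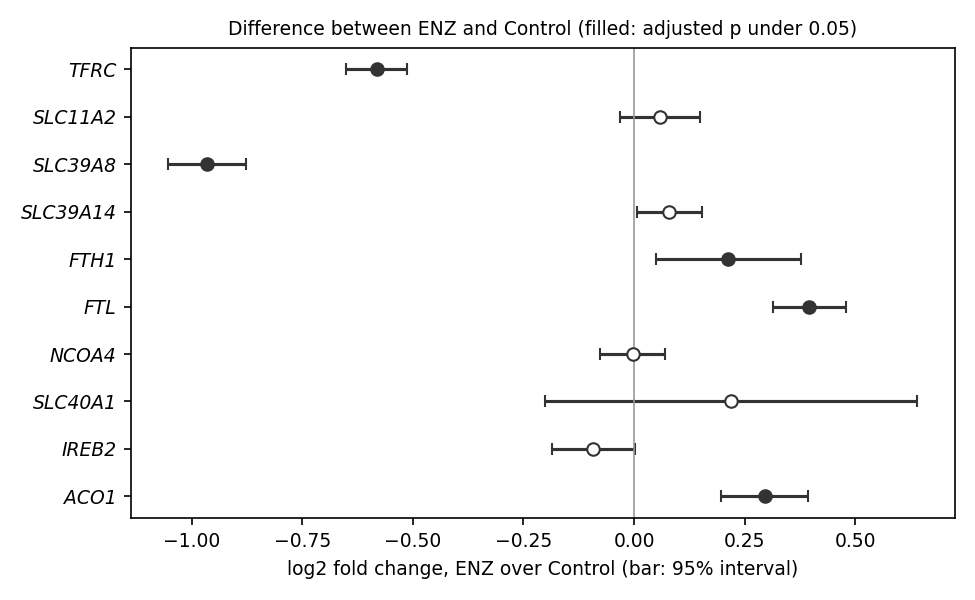
Log2 fold change of ENZ over Control (horizontal axis) for each of the 10 genes, with bars for the 95% interval; filled points passed an adjusted p under 0.05 in edgeR's test. SLC39A8 (-0.97) and TFRC (-0.58) lie left of 0, FTL (0.40), ACO1 (0.30) and FTH1 (0.21) lie right of it, and SLC40A1, at about 1 to 2 normalised CPM, has the widest bar.

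FTL encodes the light chain of ferritin, which helps the iron core form (ENSG00000087086; chromosome 19, 48965309 to 48966879). It had 393, 436 and 432 normalised CPM in ENZ libraries, against 325, 311 and 322 in Control libraries. The lowest ENZ library, replicate 1, was still above the highest Control library. FTL rose 1.32-fold (log2 fold change 0.40 ± 0.04 SE, 95% interval 0.31 to 0.48; adjusted p = 6.44e-08 in edgeR's test), and the call held in all 17 alternative settings.

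FTH1 encodes the heavy chain, the subunit that oxidises ferrous iron as it enters the shell (ENSG00000167996; chromosome 11, 61959718 to 61967634). It had 518, 552 and 543 normalised CPM in ENZ libraries, against 463, 514 and 414 in Control libraries. The Control libraries were spread more widely than the ENZ libraries, and Control replicate 2 came close to ENZ replicate 1 without reaching it; on the FPKM scale it was above it. The log2 fold change was 0.21 ± 0.07 SE (95% interval 0.05 to 0.38; adjusted p = 0.0441 in edgeR's test), a call near the threshold. It ended in 8 of 17 alternative settings, over which the adjusted p ran from 8.28e-08 to 0.227. Leaving out a library ended it without ENZ replicate 1 (0.24, adjusted p = 0.183), ENZ replicate 2 (0.20, adjusted p = 0.088), ENZ replicate 3 (0.21, adjusted p = 0.169) and Control replicate 1 (0.21, adjusted p = 0.0785). Without Control replicate 3, the lowest library, the log2 fold change was 0.14 with a call (adjusted p = 0.0259).

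Ferritin genes have many processed pseudogenes that share sequence with them, so their counts are uncertain. Rows named as FTH1 pseudogenes (18 rows) held 0.656% to 0.875% of the counts of FTH1 and its pseudogenes together, and rows named as FTL pseudogenes (9 rows) held 0.191% to 0.423%. With these rows added to their parent gene, the log2 fold changes were 0.21 for FTH1 and 0.39 for FTL, and both calls held. How reads that match more than 1 place were handled was not stated. FTH1 also overlaps BEST1 on the opposite strand, which had 246 to 310 counts in ENZ libraries and 238 to 288 in Control libraries, and the library kit keeps no strand.

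NCOA4 is the receptor that delivers ferritin to the lysosome, where its iron is released (ENSG00000266412; chromosome 10, 46005088 to 46030623). It had 249.7, 243 and 251 normalised CPM in ENZ libraries, against 249.1, 243 and 252 in Control libraries, and the groups overlapped almost fully. The log2 fold change was -0.00 ± 0.04 SE, with a 95% interval of -0.08 to 0.07 (adjusted p = 0.963 in edgeR's test). Its sign was not stable across settings; offsets for GC content and length gave 0.10 with an adjusted p of 0.0106 (0.0106 to 0.996 over 16 settings).

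SLC40A1 encodes ferroportin, the exporter of cellular iron (ENSG00000138449; chromosome 2, 189560590 to 189583758). It had 1.47, 1.74 and 2.22 normalised CPM in ENZ libraries, against 1.54, 1.46 and 1.67 in Control libraries. ENZ replicate 3 was the highest and the groups overlapped. The log2 fold change was 0.22 ± 0.20 SE (adjusted p = 0.414 in edgeR's test), and its 95% interval of -0.20 to 0.64 includes both no change and the change seen in FTL, at 40 to 64 counts a library. Single libraries decided its size: the log2 fold change was 0.05 without ENZ replicate 3 and 0.36 without ENZ replicate 1 (adjusted p = 0.901 and 0.205 in edgeR's test). HAMP, which encodes hepcidin, the hormone that triggers ferroportin breakdown, had at most 1 count in any library.

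Of the sensor genes, ACO1 passed the test and IREB2 did not. ACO1, whose product is an aconitase when it holds an iron-sulfur cluster and an IRE-binding protein when it does not (ENSG00000122729; chromosome 9, 32384603 to 32454769), had 67.6, 70.4 and 70.8 normalised CPM in ENZ libraries, against 56.8, 55.0 and 58.4 in Control libraries. The groups did not overlap. ACO1 rose 1.23-fold (log2 fold change 0.30 ± 0.05 SE, 95% interval 0.20 to 0.39; adjusted p = 3.63e-05 in edgeR's test), and the call held in all 16 alternative settings. IREB2, iron regulatory protein 2, is controlled mainly by breakdown of the protein (ENSG00000136381; chromosome 15, 78437431 to 78501453). It had 131, 126 and 117 normalised CPM in ENZ libraries, against 132, 129 and 138 in Control libraries, and the groups overlapped. Its log2 fold change was -0.09 ± 0.05 SE (95% interval -0.19 to 0.00; adjusted p = 0.11 in edgeR's test). Without ENZ replicate 1 it was -0.13 with an adjusted p of 0.0103, without ENZ replicate 3 it was -0.05 with an adjusted p of 0.452, and with GC and length offsets it turned to 0.09 with an adjusted p of 0.0318 (0.0103 to 0.452 over 16 settings).

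Ratios of 2 genes within a library need no scaling between libraries, and 5 were computed. The size of an FPKM ratio depends on the gene lengths used, but its change between groups does not. The FPKM ratio of TFRC to FTH1, receptor to storage, was 0.151, 0.142 and 0.145 in ENZ libraries, against 0.255, 0.227 and 0.287 in Control libraries. All ENZ ratios were lower, and the mean log2 ratio fell by 0.80, a 1.74-fold lower ratio. The ratio of SLC39A14 to SLC39A8 was 4.19, 4.60 and 4.65 in ENZ libraries, against 2.13, 2.10 and 2.27 in Control libraries, a 2.06-fold higher ratio without overlap. The ratio of IREB2 to ACO1 was 1.36, 1.25 and 1.15 in ENZ libraries, against 1.63, 1.64 and 1.65 in Control libraries, also without overlap.

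The ratio of SLC40A1 to TFRC, export to uptake, was 0.00893, 0.0105 and 0.0134 in ENZ libraries, against 0.0062, 0.00597 and 0.00666 in Control libraries, 1.72-fold higher without overlap, although SLC40A1 itself did not pass the test. The ratio of the ferritin chains, FTH1 to FTL, was 0.573, 0.549 and 0.546 in ENZ libraries, against 0.619, 0.717 and 0.559 in Control libraries, and the groups overlapped. With 3 libraries a group the exact two-sided permutation test cannot give a p under 0.1. It gave 0.1 for each of the 4 ratios without overlap and 0.2 for FTH1 to FTL (0.125 and 0.2 after adjustment over the 5 ratios).

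**Figure D3:**
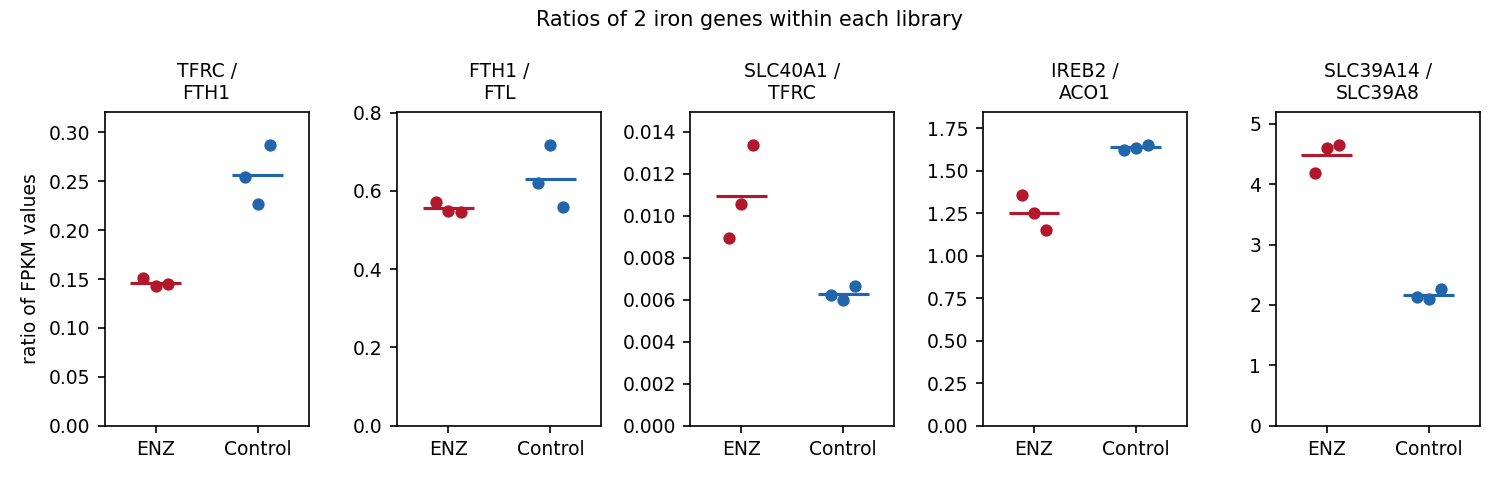
FPKM ratios of 2 iron genes within each library, with ENZ (red) left of Control (blue) in each panel, points for libraries and lines for group means; each vertical axis starts at 0. The TFRC to FTH1 and IREB2 to ACO1 ratios are lower in all 3 ENZ libraries, the SLC40A1 to TFRC and SLC39A14 to SLC39A8 ratios are higher in all 3, and the FTH1 to FTL ratios overlap.

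Other genes of iron handling, in 7 lists, gave the surroundings of these 10. Of 84 further genes tested, 29 rose and 11 fell (47.6%, against 39.8% of all genes tested), with a median log2 fold change of 0.05. Of these 84 genes, 72 had a mean over 10 CPM, and the share over all genes was not matched for level. By list, 14.3% to 66.7% of the tested genes were called, and no list was tested as a set. The transferrin cycle and ferrireductase list had 4 falls and 2 rises among 14 tested genes (42.9% called). The 4 falls were STEAP genes, a family that includes, but does not consist only of, metalloreductases of ferric iron or copper. STEAP1 fell to 93.1 normalised CPM in ENZ libraries, against 217 in Control libraries (log2 fold change -1.22 ± 0.05 SE), and STEAP4 fell to 0.504, against 2.72 (-2.42 ± 0.25 SE). STEAP2 (-1.03 ± 0.05 SE) and STEAP3, the reductase of the transferrin cycle in red cell precursors (-0.28 ± 0.08 SE), are named after their values were seen. STEAP1 and STEAP2 are abundant in prostate epithelium and STEAP2 is also among the prostate markers above. SNX3, which helps recycle the transferrin receptor, rose by 0.16 on the log2 scale. MELTF rose by 0.26, and that call ended when ENZ replicate 2, ENZ replicate 3, Control replicate 1 or Control replicate 3 was left out (0.22 to 0.27, adjusted p = 0.0586 to 0.109 in edgeR's test).

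Of 7 tested genes of iron storage and iron chaperones, 4 rose and 0 fell, with a median log2 fold change of 0.11. That is 57.1% called, against 39.8% of all genes tested (20.5% higher and 19.3% lower). The poly(rC)-binding proteins PCBP1 and PCBP2, which hand iron to ferritin, rose by 0.24 ± 0.07 SE and 0.21 ± 0.04 SE. PROM2, a membrane protein linked to ferritin export, rose by 0.31 ± 0.04 SE, to 158 normalised CPM in ENZ libraries, against 127 in Control libraries. Of 7 tested genes of iron export and the hepcidin axis, 1 rose and 0 fell (14.3% called). The riser was BMP2, a signal that raises hepcidin in liver, which had 39.1 normalised CPM in ENZ libraries and 17.3 in Control libraries (log2 fold change 1.18 ± 0.06 SE).

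Among 9 tested genes that control the iron regulatory proteins or are known to carry an IRE, 4 rose and 1 fell. That is 55.6% called, against 39.8% of all genes tested. FBXL5, the ubiquitin ligase subunit that targets iron regulatory proteins for breakdown when iron is plentiful, rose by 0.19 ± 0.05 SE, to 56.9 normalised CPM in ENZ libraries, against 49.97 in Control libraries; without Control replicate 3 the call ended (0.15, adjusted p = 0.0614 in edgeR's test). EPAS1, the hypoxia factor with an IRE in its leader, rose by 0.80 ± 0.09 SE, and APP, the amyloid precursor, by 0.37 ± 0.04 SE. CDC14A, a phosphatase with an IRE in its trailer, fell by 0.67 on the log2 scale (SE 0.07).

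Of 20 tested genes of mitochondrial iron and iron-sulfur cluster assembly, 6 rose and 2 fell; the cysteine desulfurase NFS1 rose by 0.33 and the cochaperone HSCB by 0.38, and CISD2 and ISCA1 each fell by 0.35 on the log2 scale. Of 9 genes of cytosolic iron-sulfur assembly, 2 rose (MMS19 by 0.18 and CIAO1 by 0.14) and 2 fell (44.4% called). The falls were in CIAO2A (0.18 lower) and NDOR1 (0.17 lower). The NDOR1 call ended without ENZ replicate 1, ENZ replicate 3, Control replicate 1 or Control replicate 2 (-0.17 to -0.14, adjusted p = 0.0515 to 0.148 in edgeR's test), and the CIAO2A call ended without ENZ replicate 2 (-0.14, adjusted p = 0.0545) and with GC and length offsets, where the value was 0.01.

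The haem list had the largest share of calls of the 7 lists, 66.7% against 39.8% of all genes tested. Of its 19 genes, 17 had a mean over 10 CPM, and the 39.8% was not matched for level. Of its 18 tested genes 10 were higher and 2 lower, with a median log2 fold change of 0.12. HMOX1, haem oxygenase, which frees iron from haem, rose by 0.43 ± 0.08 SE, to 18.1 normalised CPM in ENZ libraries, against 13.4 in Control libraries. The haem transporter gene FLVCR2 rose by 0.63 ± 0.12 SE and its relative FLVCR1, a haem exporter, fell by 0.26 on the log2 scale. ALAS1, the first enzyme of haem synthesis, fell by 0.14, and that call ended without ENZ replicate 1 (-0.10, adjusted p = 0.0551 in edgeR's test) and without Control replicate 2 (-0.10, adjusted p = 0.12).

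Some of these calls depended on the setting. On log2(FPKM + 1) with all genes, 10 of the named list genes lost their calls (ALAS1, CIAO1, FBXL5, FLVCR1, FLVCR2, HSCB, MELTF, MMS19, NDOR1 and PCBP1; adjusted p = 0.0589 to 0.391 with limma). FBXL5, HSCB and PCBP1 also lost them on both FPKM scales limited to genes of at least 1 FPKM (adjusted p = 0.0513 to 0.0526 with limma). DESeq2 did not call MELTF (adjusted p = 0.0939) or NDOR1 (adjusted p = 0.0747), and MELTF was not called on library totals (adjusted p = 0.057). With GC and length offsets the log2 fold changes of CISD2 (-0.15), ISCA1 (-0.17), FLVCR1 (-0.17), MMS19 (0.11) and PROM2 (0.20) were smaller by over 1.5 times and those of FBXL5 (0.36) and NDOR1 (-0.36) larger, all still called. The log2(FPKM + 1) scale, which understates low genes, gave 0.45 for EPAS1 and 0.36 for FLVCR2, and with all genes -0.25 for STEAP4.

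**Figure D4:**
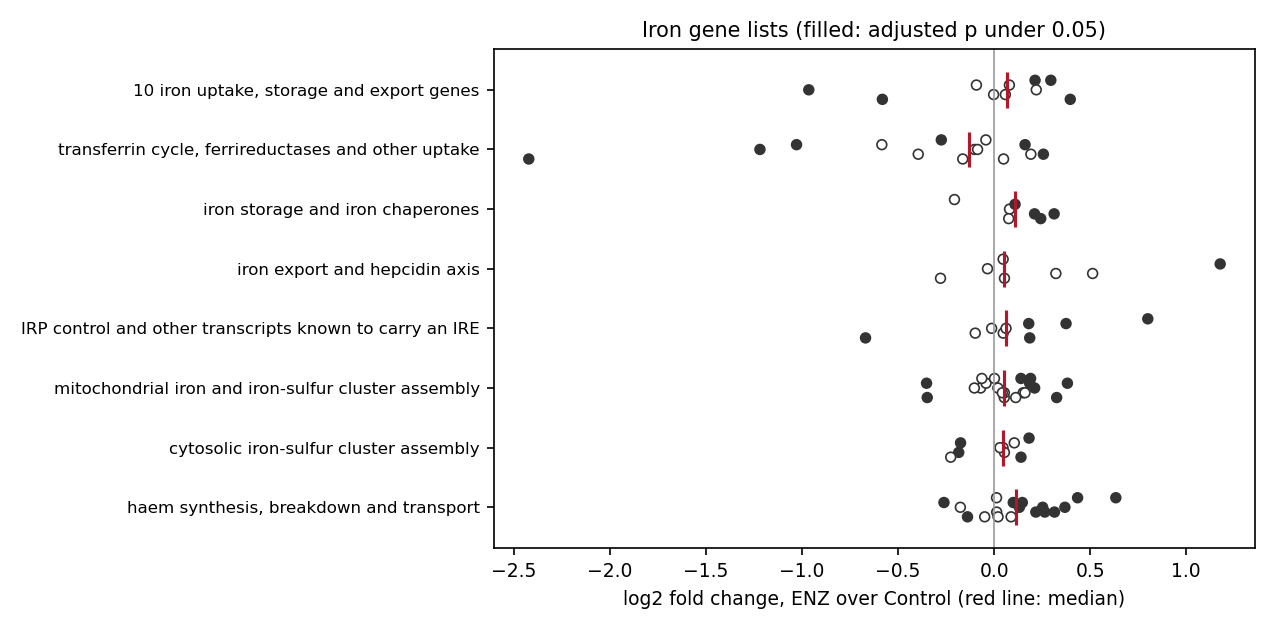
Log2 fold change of ENZ over Control for the 10 genes (top row) and for 7 further lists of iron genes; each point is a gene, filled points passed an adjusted p under 0.05 in edgeR's test, and red lines are medians. Medians lie between -0.13 and 0.12, and the points farthest to the left are STEAP genes.

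Across alternative settings SLC39A8, TFRC, FTL and ACO1 kept their calls. Without ENZ replicate 1 their log2 fold changes were -0.99, -0.58, 0.45 and 0.32, all called, and each of the 5 ratios kept its direction. The fold changes across the whole table rose with GC content, with a median of -0.18 in genes under 40% GC and 0.14 in genes of 60% GC or more, and the GC content of the longest transcript was 41.0% for TFRC, 45.5% for SLC39A8, 45.6% for ACO1, 49.96% for FTH1 and 56.0% for FTL. With offsets for GC content and length, TFRC (-0.46), SLC39A8, ACO1, FTH1 and FTL kept their directions and calls. These offsets moved the whole table upward. Of 18581 genes tested, 4895 were called higher with them and 3814 without, and the median log2 fold change was 0.03 against -0.01. Of the 10 genes, 7 were called higher with the offsets.

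**Figure D5:**
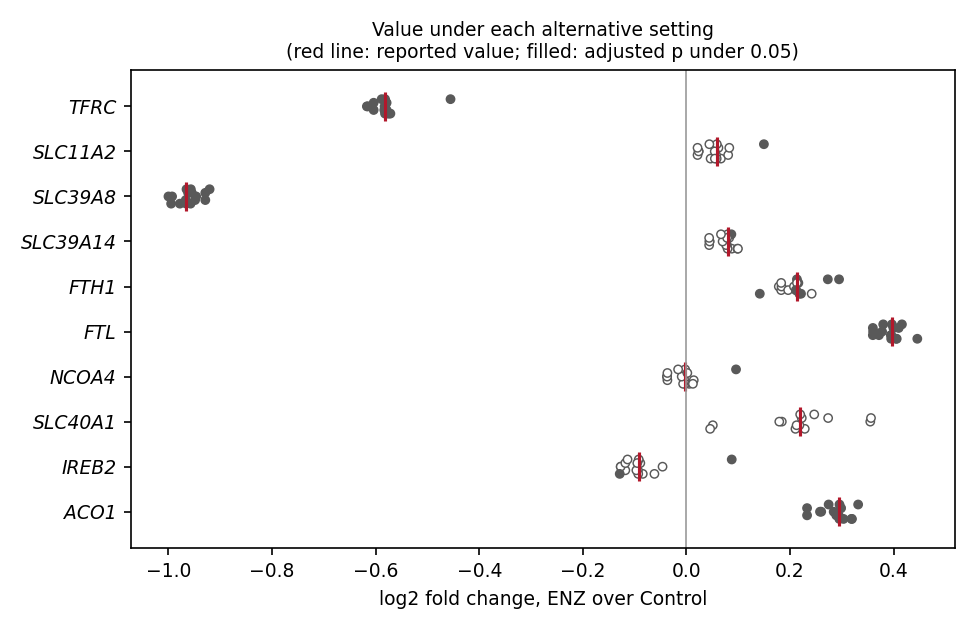
Log2 fold change of ENZ over Control for each of the 10 genes under each alternative setting (points; filled where adjusted p was under 0.05) with the reported value as a red line. TFRC and SLC39A8 stay left of 0 and FTL and ACO1 right of it with filled points throughout, while FTH1 has both filled and open points, and NCOA4 and IREB2 have filled points right of 0 with GC and length offsets.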

How the data were processed

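Per the labels' protocols, poly(A) RNA was made into libraries with a kit that does not mark strand. Per the submitters' processing notes, HISAT2 2.0.5, HTSeq 0.6.1 and DESeq2 1.20.0 were used with GRCh38; annotation release, strand setting and filters were not stated. The authors deposited raw counts and FPKM values per gene; FPKM equalled the deposited count per 1 gene length and library total, to within 4.37e-06 percent at 10 counts or more.

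Group, replicate number and columns were taken from sample titles. The ENZ against Control test used edgeR 4.0.16 (R 4.3.3) with TMM factors, default expression filter, robust quasi-likelihood F test, Benjamini-Hochberg adjustment over 18581 genes, tested on simulated data. SE is the absolute log2 fold change over the square root of F. Alternatives used DESeq2 1.42.0, limma 3.58.1 on log2(FPKM + 1) and log2(FPKM + 0.1), other scalings and filters, GC and length offsets (splines, 4 degrees of freedom), a replicate block and each library left out. The members, lists and alternatives were chosen with earlier results of these data known. Named list genes were up to 2 called genes a direction and list with the largest changes at a mean of at least 1 CPM, plus FBXL5, HMOX1, PCBP1, PCBP2 and HAMP. List genes were matched by symbol; FTMT and BOLA2, among others, were not analysed here, and some cell type markers are not reported here. Of 37923 gene identifiers, 37817 were in GENCODE release 44; 9849 rows without a symbol held 0.875% of the counts and stayed in the tests. Positions and hairpins came from that release, and each hairpin window was checked against the GRCh38 sequence. Intervals cover the spread between libraries only.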

Additional observations from a re-analysis of the deposited data

How the results depend on the processing

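Of 160 values of the 10 genes under alternative settings, 140 kept their direction and side of the threshold, 8 lost a call, 5 gained one and 7 changed sign. Of the sign changes 6 were in NCOA4, whose value was near 0: it was 0.00541 with DESeq2, 0.00056 with no filter on low counts and -0.016 to 0.0142 with libraries left out. FTH1 lost its call on library totals alone (0.18), on the log2 FPKM scales limited to genes of at least 1 FPKM (0.18 with either pseudocount) and on log2(FPKM + 1) for all genes (0.18); with libraries left out it ranged from 0.14 to 0.29. IREB2 gained a call on library totals alone (-0.13) and turned to 0.0875 with GC and length offsets; with libraries left out it ranged from -0.13 to -0.0461. With these offsets NCOA4 was 0.0958, SLC11A2 (0.15) and SLC39A14 (0.0868) gained calls and CIAO2A turned to 0.0148. The same offsets gave 7 members called higher, beside 4895 of 18581 genes in the whole table. With libraries left out, SLC39A14 ranged from 0.0667 to 0.0994, 2 to 3 members were called higher and 2 to 3 lower. The cause was not tested.

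All genes called higher numbered 3814, against 2526 and 2520 on the FPKM scales for genes of at least 1 FPKM and 1723 (with 2005 lower) on log2(FPKM + 1) for all genes; there 19, 19 and 11 genes of the other iron lists were called higher, against 29. On library totals 3097 were higher and 4104 lower, and with GC and length offsets 4895 and 3126. SLC40A1 had no value on the FPKM scales that ask for 1 FPKM.

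Same-numbered libraries did not deviate together (correlations -0.05 to 0.02). With 3 libraries a group this cannot tell whether the numbers pair the samples. With the replicate block 3832 genes were higher and 3634 lower, TFRC had a log2 fold change of -0.58, and no member's call changed. Depth limits SLC40A1: 3 counts are 0.0999 to 0.112 CPM.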
